A study of Populus x canadensis with 12 samples.

Results

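The 2 NCED3-type abscisic acid synthesis genes and the 3 AREB1 transcription factor genes of poplar were compared between leaves of watered and of drought-treated plants. They were picked by locus ID, with earlier results of these data known, and the gene names were assigned to the IDs beforehand, since the table pairs no ID with a name: Potri.011G112400.1 and Potri.001G393800.1 as NCED3-type genes, and Potri.002G125400.1, Potri.014G028200.1 and Potri.009G101200.1 as AREB1 genes. These are 5 of 41335 gene IDs in the table, and each locus has 1 row there. Leaf RNA was sequenced from 12 single plants. They were grown from cuttings of hybrid 85 or hybrid 89, both from a Populus deltoides mother (L155-079) and a Populus nigra father (71077-2-308), kept in a greenhouse in pots under daylight. Each hybrid gave 2 plants that were watered normally (C), 2 in moderate drought (D1) and 2 in severe drought (D2). Watering was withheld for 8 or 13 days, and the labels do not say which stage had which period, nor plant age or the day of harvest. Time and drought cannot be told apart here. The clone number differs in all 12 libraries, and the labels do not say whether clones of a hybrid are genetically identical.

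Abscisic acid is the hormone that closes stomata and turns on protective genes when a plant loses water. It is made from carotenoids, and NCED enzymes, which cleave an epoxycarotenoid in the plastid, catalyse the step that is held to limit its synthesis; NCED3 of Arabidopsis is the family member best known for rising in water-stressed leaves. AREB1 is a bZIP transcription factor of Arabidopsis that is activated through abscisic acid signalling and binds the abscisic acid response element in promoters of drought genes. The NCED3-type genes are thus on the hormone's supply side and the AREB1 genes on its response side. Roles given here come from Arabidopsis and were not tested in these plants.

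The library totals recovered from the values ran from 2259634 to 10509089 reads, and the largest belonged to replicate 1 of hybrid 85 in C. Replicate 1 of hybrid 89 in D2 had the lowest mean correlation with its own stage, 0.862 against 0.891 to 0.937 for the other libraries. Values are RPKM, reads scaled by coding length and by the library's total, so a level is relative to all other transcripts in the leaf. In whole leaves, fewer cells of a type and less RNA per cell cannot be told apart. Leaf marker genes were not analysed here, and the leaf label was not checked. Near-identical copies may share reads, which makes the split between copies uncertain. All 5 genes passed the filter on low values, which kept 24117 genes.

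In severe drought, 4 of the 5 genes were higher than in watered leaves, and both NCED3-type genes were among them. In moderate drought, 2 of the 5 were higher, 1 of each kind. From moderate to severe drought only the 2 NCED3-type genes were called higher (whether this step differs from that of the AREB1 genes was not tested). These calls are from limma at adjusted p below 0.05. Of all genes tested, 21.6% were higher in D2 than in C, 3.14% were higher in D1 than in C, and 15.8% were higher in D2 than in D1. None of the 5 genes was called lower, against 19.2%, 2.42% and 18.2% of all genes in the same order; limma-voom on recovered reads also called none lower. The D2 values of the 2 NCED3-type genes all lay above their D1 values, as did those of 14% of tested genes. The median log2 change of the 5 genes was 2.60 from C to D2 and 1.24 from C to D1, beside 0.07 and 0.14 over all genes tested. From D1 to D2 it was 0.79, beside -0.12 over all genes. The D1 and D2 comparisons share the same control plants. Over all genes, the D1 calls split into 758 higher and 584 lower, and this split was 715 and 955 with quantile normalization and 524 and 958 with median-ratio scaling.

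**Figure D1:**
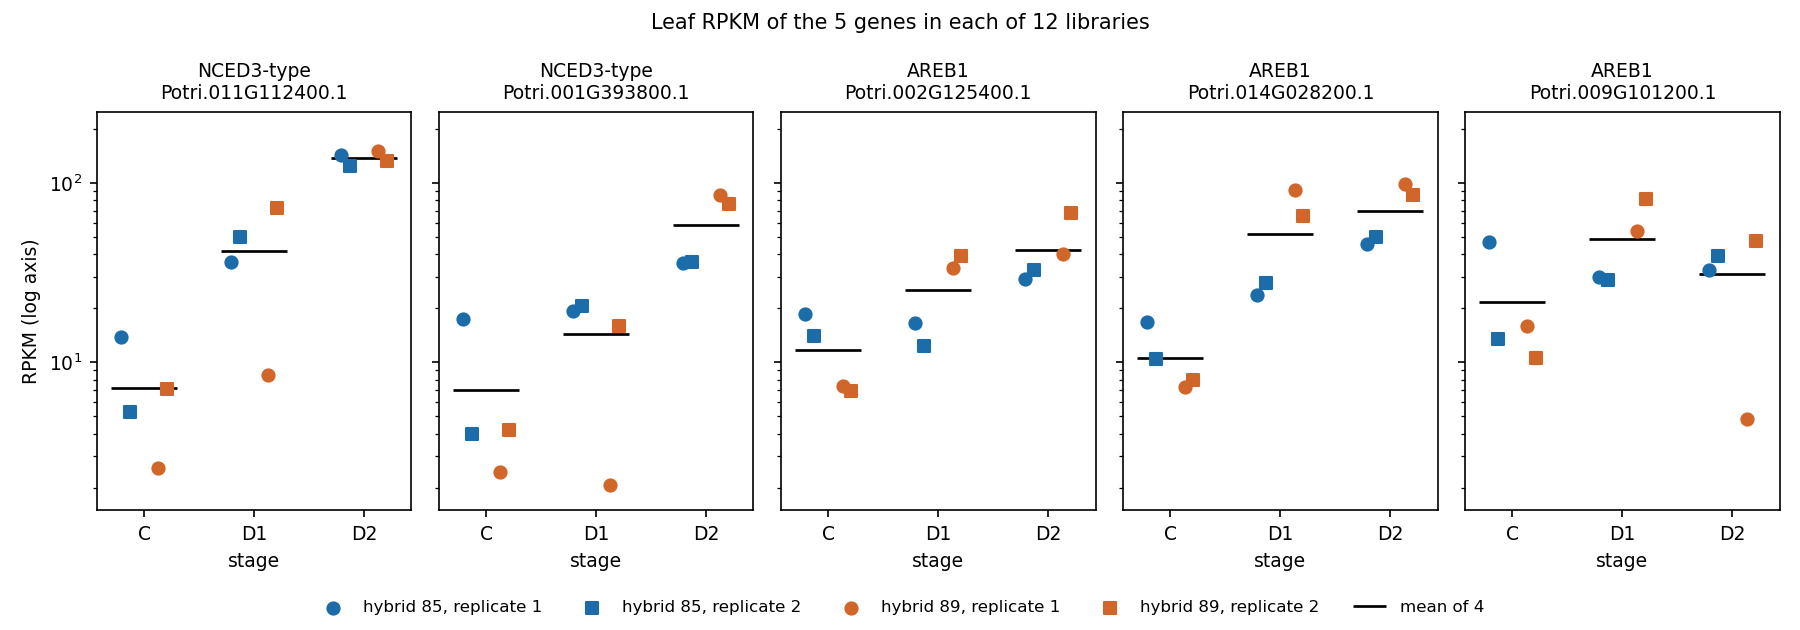
RPKM on a log axis for each of the 5 genes in each of the 12 libraries, by stage; colours mark the hybrid, symbols the replicate and black lines the mean of the 4 libraries of a stage. The 4 D2 points of Potri.011G112400.1 lie close together between 123.9 and 149.8 RPKM, whereas Potri.009G101200.1 has a single D2 point at 4.82 RPKM.

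Potri.011G112400.1 (NCED3-type, chromosome number 11 in its ID, coding length 1779 bp) had the largest estimated change of the 5 genes in both drought stages. In C its level was 13.8 and 5.31 RPKM in hybrid 85 and 2.56 and 7.10 RPKM in hybrid 89. In D1 it was 36.2 and 50.1 RPKM in hybrid 85 and 8.52 and 72.8 RPKM in hybrid 89. In D2 it was 142.5 and 123.9 RPKM in hybrid 85 and 149.8 and 132.6 RPKM in hybrid 89. The D2 values lay above every other library, while the D1 value of replicate 1 of hybrid 89 fell inside the control range. Over 4 plants the mean and SD were 7.19 ± 4.78 RPKM in C, 41.9 ± 26.9 in D1 and 137.2 ± 11.4 in D2, so that the D2 mean was 19.1 times and the D1 mean 5.83 times the control mean. The spread relative to the mean narrowed from 66.5% in C and 64.2% in D1 to 8.29% in D2. In C 48.3% of tested genes had a lower mean RPKM than this gene; in D1 it was 85.2% and in D2 94.5%.

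The log2 change of Potri.011G112400.1 was 4.26 ± 0.53 from C to D2 (SE, limma adjusted p = 4.43e-05), 2.24 ± 0.53 from C to D1 (limma adjusted p = 0.0274) and 2.02 ± 0.53 from D1 to D2 (limma adjusted p = 0.0103). A larger rise than in this gene was seen in 1.08% of tested genes from C to D2 and in 0.755% from C to D1. The D2 rise was called in each of 23 alternative settings. The D1 rise was less secure. Its limma adjusted p was 0.0618 when only the C and D1 libraries entered the fit. Dropping a C plant gave an adjusted p of 0.086 (hybrid 85, replicate 2), 0.0934 (hybrid 89, replicate 1) or 0.0501 (hybrid 89, replicate 2). Dropping a D1 plant gave 0.0648 and 0.0853 for replicates 1 and 2 of hybrid 85 and 0.0738 for replicate 2 of hybrid 89.

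Potri.001G393800.1 (NCED3-type, chromosome number 1, 1800 bp) rose in severe drought but was not called in moderate drought. In C its level was 17.4 and 3.99 RPKM in hybrid 85 and 2.44 and 4.17 RPKM in hybrid 89. In D1 it was 19.2 and 20.5 RPKM in hybrid 85 and 2.07 and 15.9 RPKM in hybrid 89. The value of 2.07 RPKM rests on 15 reads, with an exact Poisson interval of 1.16 to 3.42 RPKM at 95%, which covers counting error only. In D2 it was 35.9 and 36.3 RPKM in hybrid 85 and 85.6 and 75.9 RPKM in hybrid 89. The D2 values overlapped neither C nor D1, and the C and D1 values overlapped each other.

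Potri.001G393800.1 averaged 6.997 ± 6.97 RPKM in C, 14.4 ± 8.46 in D1 and 58.4 ± 26.1 in D2 (n = 4, ± SD). The change from C to D2 was 8.35-fold in mean RPKM and 3.11 ± 0.62 on the log2 scale (SE, limma adjusted p = 0.00153). From D1 to D2 the log2 change was 2.17 ± 0.62 (limma adjusted p = 0.0171), and dropping either D2 plant of hybrid 89 gave an adjusted p of 0.0502 or 0.0531. From C to D1 the log2 change was 0.95, with a 95% interval of -0.40 to 2.29 (limma adjusted p = 0.409). In C this gene and Potri.011G112400.1 stood at similar mean levels; in D1 and D2 Potri.001G393800.1 had the lower mean.

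**Figure D2:**
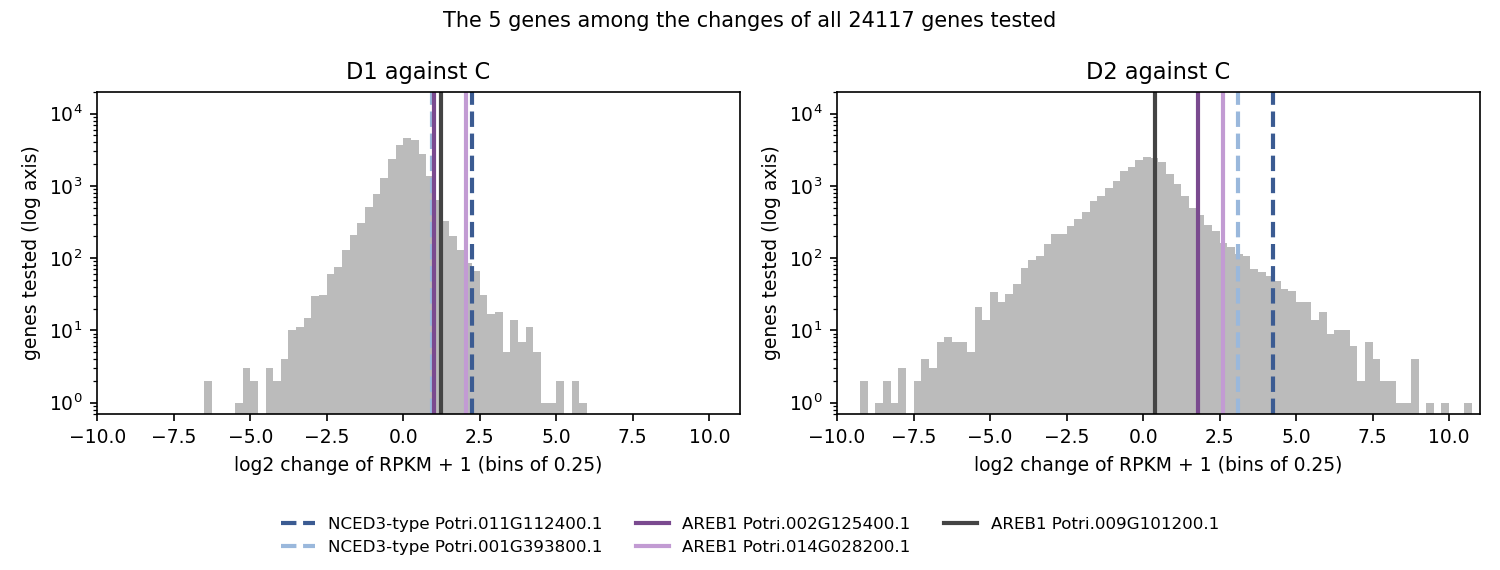
Histograms of the log2 change of all genes tested from C to D1 (left) and from C to D2 (right), in bins of 0.25 with a log count axis; vertical lines mark the 5 genes. In D2 the lines of Potri.011G112400.1 at 4.26 and Potri.001G393800.1 at 3.11 stand in the upper tail, and that of Potri.009G101200.1 at 0.38 stands near the centre.

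Among the AREB1 genes, Potri.014G028200.1 (chromosome number 14, 1236 bp) changed most and was called in both drought stages. In C its level was 16.8 and 10.4 RPKM in hybrid 85 and 7.25 and 7.98 RPKM in hybrid 89. In D1 it was 23.6 and 27.6 RPKM in hybrid 85 and 90.7 and 65.1 RPKM in hybrid 89. In D2 it was 45.5 and 49.8 RPKM in hybrid 85 and 98.2 and 85.4 RPKM in hybrid 89. It was the only 1 of the 5 genes whose D1 values all lay above its C values, a separation upward that 9.33% of tested genes had. Hybrid 89 was below hybrid 85 in C and above it in D1 and D2, with no overlap at any stage.

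The means of Potri.014G028200.1 were 10.6 ± 4.33 RPKM in C, 51.8 ± 31.99 in D1 and 69.7 ± 26.1 in D2 (n = 4, ± SD), 4.88-fold and 6.58-fold the control mean in D1 and D2. Its log2 change was 2.04 ± 0.38 from C to D1 (SE, limma adjusted p = 0.00883) and 2.60 ± 0.38 from C to D2 (limma adjusted p = 0.000171), and both were called in each of 23 alternative settings. From D1 to D2 the change was 0.56, with a 95% interval of -0.27 to 1.39 (limma adjusted p = 0.282). A further step beyond D1 was not detected over both hybrids.

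Potri.002G125400.1 (AREB1, chromosome number 2, 1371 bp) rose in severe drought. In C its level was 18.6 and 14.05 RPKM in hybrid 85 and 7.37 and 6.91 RPKM in hybrid 89. In D1 it was 16.5 and 12.3 RPKM in hybrid 85 and 33.5 and 39.3 RPKM in hybrid 89. In D2 it was 29.1 and 32.6 RPKM in hybrid 85 and 40.4 and 67.5 RPKM in hybrid 89. All D2 values exceeded all C values, an upward separation found in 4 of the 5 genes and in 19.3% of all tested genes. In D1 the plants of hybrid 85 stood at their control level and those of hybrid 89 well above theirs.

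For Potri.002G125400.1 the stage averages were 11.7 ± 5.62 RPKM in C, 25.4 ± 13.0 in D1 and 42.4 ± 17.4 in D2 (n = 4, ± SD). The D2 change was 3.61-fold in mean RPKM and 1.80 ± 0.40 on the log2 scale (SE, limma adjusted p = 0.00334). The changes from C to D1, 1.01 (95% interval 0.14 to 1.89, limma adjusted p = 0.167), and from D1 to D2, 0.79 (-0.09 to 1.66, limma adjusted p = 0.153), did not pass the threshold over all genes. The latter had an adjusted p of 0.0339 when only the D1 and D2 libraries entered the fit.

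Potri.009G101200.1 (AREB1, chromosome number 9, 1236 bp) had the highest mean of the 5 genes in C and was called in no stage comparison. In C its level was 46.6 and 13.4 RPKM in hybrid 85 and 15.9 and 10.5 RPKM in hybrid 89. In D1 it was 30.0 and 28.8 RPKM in hybrid 85 and 53.7 and 81.6 RPKM in hybrid 89. In D2 it was 32.6 and 39.2 RPKM in hybrid 85 and 4.82 and 47.5 RPKM in hybrid 89. The stages overlapped in every comparison. The D2 value of 4.82 RPKM, in replicate 1 of hybrid 89, rests on 14 reads (exact Poisson interval 2.64 to 8.09 RPKM at 95%, counting error only) and is the lowest value of this gene in any library.

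The means of Potri.009G101200.1 were 21.6 ± 16.8 RPKM in C, 48.5 ± 24.9 in D1 and 31.0 ± 18.5 in D2 (n = 4, ± SD). The log2 changes were 1.24 from C to D1 (95% interval -0.13 to 2.61, limma adjusted p = 0.278), 0.38 from C to D2 (-0.99 to 1.75, limma adjusted p = 0.668) and -0.86 from D1 to D2 (-2.23 to 0.51, limma adjusted p = 0.317). Dropping that D2 plant moved the change from C to D2 to 1.11 (limma adjusted p = 0.0819), and dropping the C plant at 46.6 RPKM moved it to 0.81 (limma adjusted p = 0.348).

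Single libraries stood out across several genes. The deepest library, C replicate 1 of hybrid 85, had the highest control value of all 5 genes. Replicate 1 of hybrid 89 in D1 had the lowest D1 value of both NCED3-type genes, 8.52 and 2.07 RPKM, and at the same time the highest D1 value of Potri.014G028200.1, 90.7 RPKM. In that plant the summed level of the NCED3-type genes was 10.6 RPKM and that of the AREB1 genes 178 RPKM, against 88.8 and 186 RPKM in the other D1 plant of hybrid 89. Replicate 1 of hybrid 89 in D2 had the highest D2 value of 3 genes, Potri.011G112400.1, Potri.001G393800.1 and Potri.014G028200.1, and the lowest of Potri.009G101200.1. Whether depth or the state of these leaves plays a part was not tested.

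Over all stages no difference between the hybrids was called in any of the 5 genes (limma, with stage in the model), where 2.94% of all tested genes were called. None of the 5 reached an unadjusted p below 0.05, and limma-voom on the recovered reads also called 0. The log2 differences of hybrid 89 from hybrid 85 were between -0.53 for Potri.001G393800.1 and 0.59 for Potri.014G028200.1. The 95% interval was -1.62 to 0.57 for the former and -0.09 to 1.26 for the latter. Each of these differences is an average over stages, in which opposite directions can partly cancel. In Potri.014G028200.1 and Potri.002G125400.1 hybrid 89 was below hybrid 85 in C and above it in D1 and D2. The ratio of mean RPKM in C, D1 and D2 was 0.56, 3.04 and 1.93 for the first and 0.44, 2.53 and 1.75 for the second.

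In moderate drought 2 of the 3 AREB1 genes were higher in hybrid 89 than in hybrid 85. Comparisons within a stage or within a hybrid, with 2 libraries against 2, were chosen after the values were seen. Within C and within D2 none of the 5 genes was called between the hybrids (limma; 2 at unadjusted p below 0.05 in each; 0 by limma-voom), where 0.597% and 5.45% of all genes were. The summed AREB1 level in D1 was 70.2 and 68.7 RPKM in hybrid 85 and 178 and 186.0 RPKM in hybrid 89. In C it was 82.0 and 37.9 RPKM in hybrid 85 and 30.6 and 25.4 RPKM in hybrid 89. The hybrids therefore overlapped in neither stage and stood in opposite order. Within D1 the log2 difference of hybrid 89 from hybrid 85 was 1.55 ± 0.28 for Potri.014G028200.1 (SE, limma adjusted p = 0.0104) and 1.29 ± 0.30 for Potri.002G125400.1 (limma adjusted p = 0.0287), where 4% of all tested genes were called higher in hybrid 89. For Potri.009G101200.1 it was 1.14, with a 95% interval of -0.64 to 2.93 (limma adjusted p = 0.44). The call on Potri.014G028200.1 was lost with D1 replicate 1 of hybrid 85 or of hybrid 89 dropped (adjusted p = 0.101 and 0.104). That on Potri.002G125400.1 was lost with any D1 plant dropped, at 0.101 and 0.17 for replicates 1 and 2 of hybrid 85 and 0.118 and 0.145 for those of hybrid 89.

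Within hybrid 89, 2 of the 5 genes rose from C to D1 (limma, 4 at unadjusted p below 0.05), where 4.27% of all genes did. Within hybrid 85 none was called (limma, 2 at unadjusted p below 0.05, 0 by limma-voom), where 2.71% of all genes rose. In hybrid 89 the log2 change from C to D1 was 3.18 ± 0.28 for Potri.014G028200.1 (SE, limma adjusted p = 0.0005) and 2.20 ± 0.30 for Potri.002G125400.1 (limma adjusted p = 0.00412). In hybrid 85 it was 0.90 ± 0.28 (limma adjusted p = 0.091) and -0.17 ± 0.30 (limma adjusted p = 0.811). Potri.011G112400.1 changed by 2.17 ± 0.78 in hybrid 85 (limma adjusted p = 0.133) and 2.30 ± 0.78 in hybrid 89 (limma adjusted p = 0.107), without a call. Also uncalled were Potri.009G101200.1, at 0.21 in hybrid 85 and 2.27 in hybrid 89, and Potri.001G393800.1, at 1.12 and 0.77. The difference between the hybrids in this response was 2.28 ± 0.40 for Potri.014G028200.1 and 2.37 ± 0.42 for Potri.002G125400.1, and its limma adjusted p was 0.0734 and 0.0798, short of the threshold. None of the 24117 genes tested passed this test (0 calls by limma and 0 by limma-voom). An unadjusted limma p below 0.05 was reached by 4042 genes, and the median difference over all genes was 0.30. In 18 of 21 alternatives neither difference passed, with an adjusted p of up to 0.255 and 0.296. Both passed in the other 3: with library quality weights (limma adjusted p = 0.0282 and 0.0273) and with either D2 plant of hybrid 89 dropped. With the weights 297 of the 24117 genes were called. Dropping a D2 plant left the differences at 2.28 and 2.37, and more genes were called over the whole table in those fits too.

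For the NCED3-type genes no difference between the hybrids in the D1 response was detected. It was 0.13 for Potri.011G112400.1 (95% interval -2.29 to 2.55, limma adjusted p = 0.97) and -0.35 for Potri.001G393800.1 (-2.60 to 1.90, limma adjusted p = 0.899). The direction of both turned with the library left out, with ranges of -1.35 to 1.61 and -1.58 to 0.88. The ends of both ranges came from dropping D1 replicate 2 and D1 replicate 1 of hybrid 89. The first interval includes differences as large as those of Potri.014G028200.1 and Potri.002G125400.1, and the D1 plants of hybrid 89 differed among themselves in both genes.

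From C to D2, 3 of the 5 genes rose within hybrid 85 and 4 within hybrid 89 (limma), where 13.5% and 23.2% of all genes did. The third in hybrid 85, Potri.002G125400.1 (0.89, limma adjusted p = 0.0486), missed the threshold in 14 of 21 alternatives. The D2 means of Potri.011G112400.1 were close, 133.2 RPKM in hybrid 85 and 141.2 RPKM in hybrid 89. Potri.001G393800.1 had 36.1 RPKM in hybrid 85 and 80.8 RPKM in hybrid 89, 3.38 times and 24.4 times the control mean of the same hybrid. The control mean of hybrid 85 joins plants at 17.4 and 3.99 RPKM. Its C-to-D2 log2 change was 1.95 ± 0.72 in hybrid 85 (SE, limma adjusted p = 0.0671) and 4.27 ± 0.72 in hybrid 89 (limma adjusted p = 0.00103), and the difference between hybrids was 2.32 (95% interval 0.07 to 4.57, limma adjusted p = 0.259). With the C plant at 17.4 RPKM dropped, the change in hybrid 85 was 2.89 (limma adjusted p = 0.0237) and the difference 1.38 (limma adjusted p = 0.48); with the other C plant of hybrid 85 dropped, they were 1.01 and 3.26. The difference was called in none of 21 alternatives. Potri.002G125400.1 and Potri.014G028200.1 differed in the D2 response by 1.82 ± 0.42 and 1.66 ± 0.40 (limma adjusted p = 0.0761 and 0.0831). Each was called in 1 of 21 alternatives, with D2 replicate 2 of hybrid 89 dropped, where the differences were 1.46 and 1.75. That group is then 1 library, the one with the lowest within-stage correlation, and is assumed to vary like the other groups. Genes called over the whole table were also far more numerous in that fit than with all libraries. None of the 5 genes passed this test with all libraries, while 3 had an unadjusted p below 0.05, limma-voom called 0 of the 5, and 0.469% of all genes were called.

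**Figure D3:**
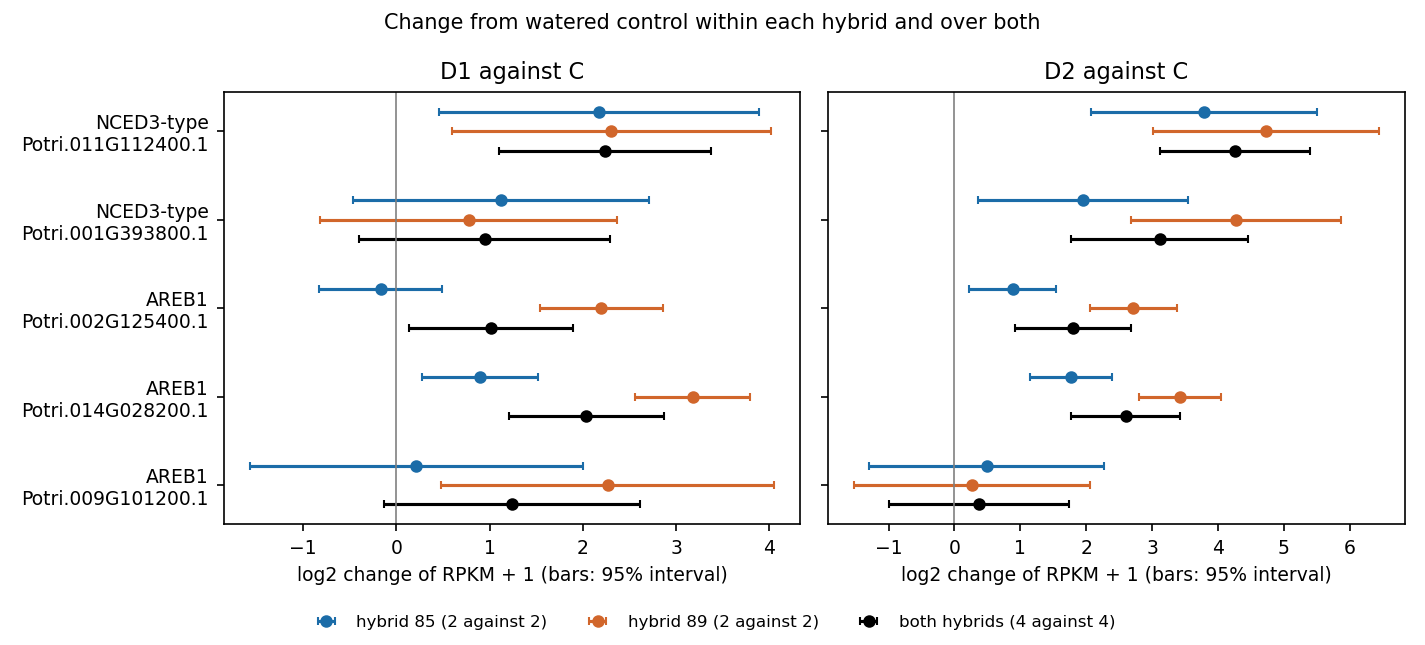
Log2 change of RPKM + 1 from C to D1 (left) and from C to D2 (right) for each gene, in hybrid 85 (blue), in hybrid 89 (orange) and over both hybrids (black); bars are 95% intervals from limma. In D1 the intervals of the hybrids do not touch for Potri.002G125400.1 and Potri.014G028200.1, with estimates of -0.17 and 2.20 and of 0.90 and 3.18.

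The step from D1 to D2 was also taken within each hybrid. In hybrid 89 both NCED3-type genes rose, where 15.4% of all genes did, Potri.001G393800.1 by 3.50 ± 0.72 (SE, limma adjusted p = 0.00399) and Potri.011G112400.1 by 2.42 ± 0.78 (limma adjusted p = 0.0333), while the 3 AREB1 genes were not called. The rise of Potri.001G393800.1 was called in all 21 alternatives, and was 2.27 (limma adjusted p = 0.03) with D1 replicate 1 of hybrid 89 dropped and 4.73 with D1 replicate 2 dropped. The call on Potri.011G112400.1 in hybrid 89 was lost in 8 of 21 alternatives, and the rise was 0.94 (limma adjusted p = 0.268) with D1 replicate 1 of hybrid 89 dropped. Dropping a D2 plant gave 0.116 and 0.0668 for replicates 1 and 2 of hybrid 89 and 0.051 and 0.0511 for those of hybrid 85. Potri.014G028200.1 just missed a call in hybrid 85, at 0.87 ± 0.28 (limma adjusted p = 0.0536), and was called in 2 of 9 alternatives that kept all libraries. In hybrid 85 Potri.002G125400.1 rose by 1.06 ± 0.30 (limma adjusted p = 0.0318), where 10.1% of all genes rose, and the other 4 genes were not called. With any of these 4 plants of hybrid 85 dropped the call was lost, at 0.072 and 0.196 for D1 replicates 1 and 2 and 0.0993 and 0.129 for those of D2. A test of the difference between hybrids in this step called none of the 5 genes (limma; 1 at unadjusted p below 0.05; 0 by limma-voom), where 2.05% of all genes were called, so a difference in which genes rose is not shown.

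The balance between copies of a kind shifted with drought. For each library the log2 ratio of RPKM + 1 of 2 copies was taken, and stages were compared by two-sided exact permutation tests, 12 in all, in which 4 against 4 libraries cannot give a p below 0.0286. Potri.011G112400.1 exceeded Potri.001G393800.1 by 0.18 ± 0.41 in C, 1.47 ± 0.53 in D1 and 1.32 ± 0.61 in D2 (log2 ratio, n = 4, ± SD). The ratio was thus higher in both drought stages than in C (exact permutation p = 0.0286 for each, adjusted p = 0.049 over the 12 tests). The 12 tests share libraries and copies, and an adjusted p of 0.049 was reached only because other tests were at the smallest p too. Between D1 and D2 no move was detected with the hybrids pooled (exact permutation p = 0.686), but the hybrids went opposite ways. In hybrid 85 the ratio was 0.88 and 1.25 in D1 and 1.96 and 1.74 in D2. In hybrid 89 it was 1.63 and 2.12 in D1 and 0.80 and 0.80 in D2. This split was not tested. Potri.011G112400.1 made up 53.9 ± 8.04% of the summed NCED3-type RPKM in C, 74.7 ± 7.93% in D1 and 71.1 ± 8.72% in D2. The sum itself was 14.2 ± 11.6, 56.3 ± 33.4 and 195.6 ± 33.2 RPKM.

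Among the AREB1 genes Potri.014G028200.1 gained on Potri.009G101200.1. The log2 ratio of Potri.014G028200.1 to Potri.009G101200.1 was -0.79 ± 0.53 in C, 0.01 ± 0.51 in D1 and 1.43 ± 1.78 in D2 (n = 4, ± SD), higher in D1 and in D2 than in C (exact permutation p = 0.0286 for each, adjusted p = 0.049). Potri.002G125400.1 and Potri.014G028200.1 stood at like levels in C, with a log2 ratio of 0.09 ± 0.24, and Potri.002G125400.1 was the lower of the pair in D1, at -0.93 ± 0.41, and in D2, at -0.71 ± 0.39 (exact permutation p = 0.0286 for each against C, adjusted p = 0.049). Potri.002G125400.1 gained on Potri.009G101200.1 from D1 to D2, from -0.92 ± 0.22 to 0.73 ± 1.44 (exact permutation p = 0.0286, adjusted p = 0.049). Potri.009G101200.1 held 46.5 ± 9.76% of the summed AREB1 level in C, 39.7 ± 6.40% in D1 and 22.4 ± 13.2% in D2, and 3.36% in replicate 1 of hybrid 89 in D2. Without that library the D2 shift against C was 1.34 in place of 2.22 for the pair with Potri.014G028200.1, and the shift from D1 to D2 was 0.95 in place of 1.65 for the pair with Potri.002G125400.1. The relabelling in these tests did not keep the hybrids balanced. With 1 library left out, each of the 7 shifts called here missed the adjusted threshold in 7 or 8 of 8 cases. The adjusted p of a shift also depends on how many other tests are at the smallest p. These losses therefore cannot tell whether a shift itself weakened.

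**Figure D4:**
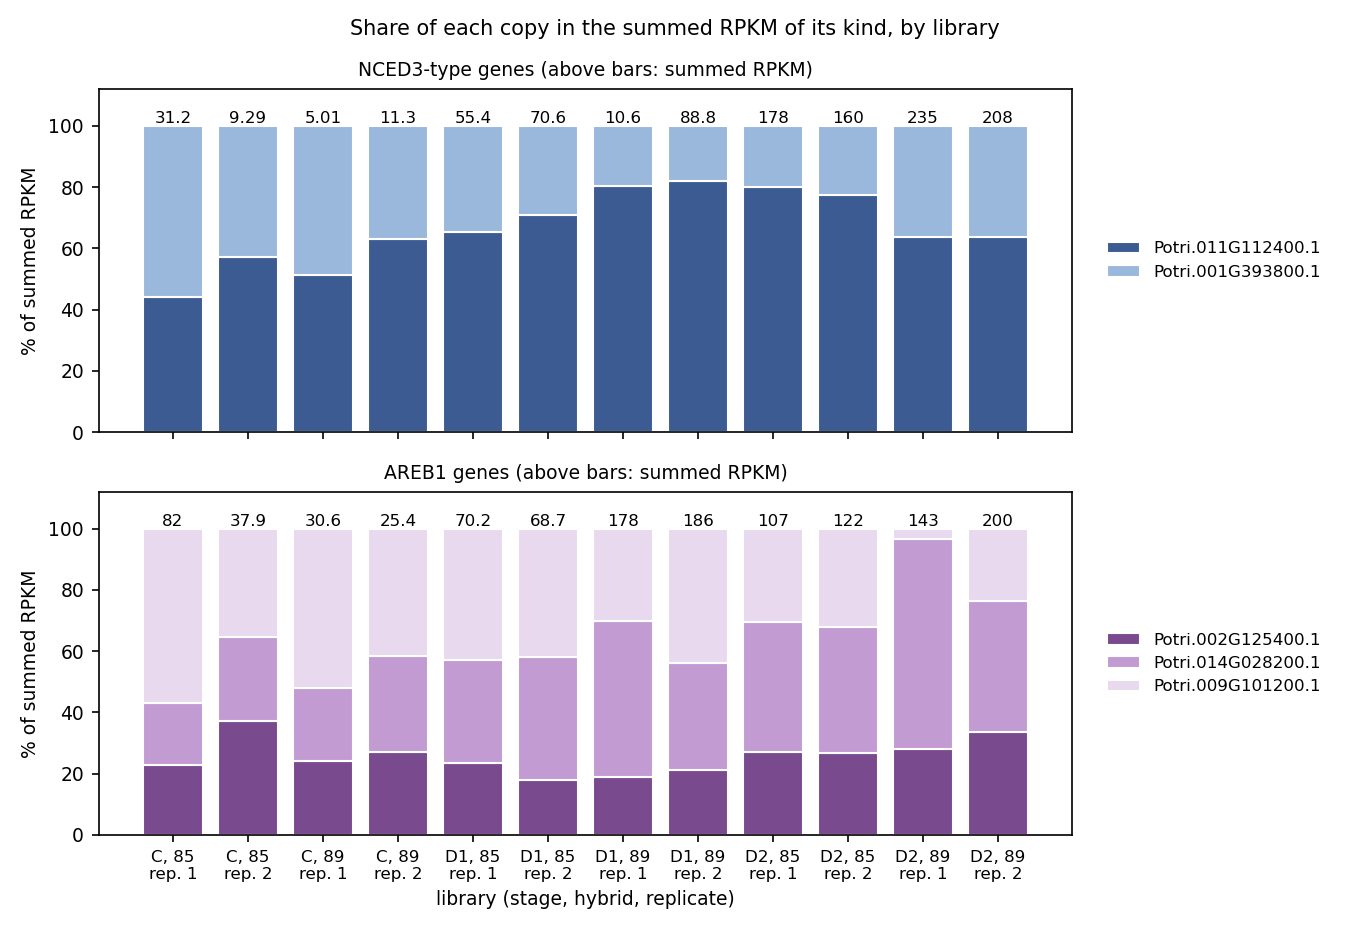
Share of each copy in the summed RPKM of the 2 NCED3-type genes (top) and the 3 AREB1 genes (bottom) in each library, with the summed RPKM above each bar. The share of Potri.011G112400.1 is 44.2% to 63.0% in C and 63.6% to 82.1% in the drought libraries, and that of Potri.009G101200.1 drops to 3.36% in one D2 library.

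The order of levels also changed. By mean RPKM, which is per length, Potri.009G101200.1 led in C at 21.6 RPKM, with 1 library at 46.6 RPKM. Its remaining C values, from 10.5 to 15.9 RPKM, overlapped those of the other 4 genes. The means of these 4 lay between 6.997 and 11.7 RPKM, within each other's spread. In D1 the means of Potri.014G028200.1, Potri.009G101200.1 and Potri.011G112400.1 were 51.8, 48.5 and 41.9 RPKM, also within their spread. In D2 Potri.011G112400.1 led at 137.2 RPKM and its lowest library, 123.9 RPKM, was above the highest of any other of the 5 genes, 98.2 RPKM. Potri.014G028200.1, Potri.001G393800.1, Potri.002G125400.1 and Potri.009G101200.1 followed at 69.7, 58.4, 42.4 and 31.0 RPKM, with overlapping values between neighbours.

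Over the 12 libraries the Pearson correlation of log2(RPKM + 1) was 0.93 between the NCED3-type genes and 0.92 between Potri.002G125400.1 and Potri.014G028200.1. Between these AREB1 genes and the NCED3-type genes it was 0.61 to 0.75. Potri.009G101200.1 correlated with the other 4 at 0.03 to 0.42. The points share stages, hybrids and library depth, so these values are a description of the 12 libraries. Many other genes were as alike: Potri.001G393800.1 was number 60 of 24116 genes in likeness to Potri.011G112400.1, and Potri.014G028200.1 was number 25 in likeness to Potri.002G125400.1.

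The gene most like Potri.011G112400.1 was Potri.019G077600.1 (r = 0.98), followed by Potri.017G002600.1 and Potri.008G030500.1 (0.96 each). Potri.019G077600.1 went from 5.07 RPKM in C to 13.9 in D1 and 27.8 in D2. For Potri.001G393800.1 the closest were Potri.019G103200.1 (0.97), Potri.006G262500.1 (0.96) and Potri.008G192600.1 (0.95), and the last of these went from 2.92 to 12.3 and 82.5 RPKM. For Potri.014G028200.1 they were Potri.013G051400.1 (0.98), Potri.013G039600.1 (0.97) and Potri.009G124200.1 (0.97). The last of these was also among the 3 most like Potri.002G125400.1 (0.96), after Potri.019G025600.1 (0.97) and Potri.002G003000.1 (0.96). For Potri.009G101200.1 they were Potri.005G080600.1 (0.99), Potri.004G140600.1 (0.95) and Potri.013G067600.1 (0.94). Potri.004G140600.1 had means of 43.4, 85.5 and 42.1 RPKM in C, D1 and D2, and neither its change from C to D1 nor that from C to D2 was called (limma adjusted p = 0.364 and 0.729). A correlation above 0.9 was reached by 175 genes for Potri.011G112400.1, by 153 for Potri.014G028200.1, by 94 for Potri.001G393800.1, by 72 for Potri.002G125400.1 and by 15 for Potri.009G101200.1.

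Of 30 neighbours, 3 on each side of each gene, 14 passed the filter on low values, and from C to D2 2 of these were called higher and 3 lower (limma). Of all genes tested, 21.6% were called higher and 19.2% lower. Both that rose are neighbours of Potri.011G112400.1: Potri.011G112200.1, next but one, by 0.84 (limma adjusted p = 0.0162) and Potri.011G112500.1 by 1.06 (limma adjusted p = 0.0198), beside 4.26 for Potri.011G112400.1. Potri.011G112300.1, the ID before Potri.011G112400.1, changed by -1.05 without a call (limma adjusted p = 0.0964). On the side of Potri.011G112500.1, Potri.011G112700.1 fell, with means of 2648 RPKM in C and 562.3 RPKM in D2 and a log2 change of -2.62 (limma adjusted p = 0.0012). Potri.001G393700.1, the ID before Potri.001G393800.1, fell by 3.16 (limma adjusted p = 0.00109), and Potri.002G125200.1, next but one to Potri.002G125400.1, fell by 2.18 (limma adjusted p = 0.00101). None of the 4 tested neighbours of Potri.014G028200.1 was called in D2.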

How the data were processed

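The deposited table holds RPKM values for 12 leaf libraries, 1 per plant, computed by the authors, per the file header. The submitters' processing notes list Trimmomatic 0.32. Aligner, counting tool, strand setting, genome build and annotation: not given in the sources used here. The authors' 3 columns of stage means were not used. Columns were matched to samples by hybrid and clone number. Totals, coding lengths and reads were recovered from the RPKM values. The length of a gene was taken as the shortest, in whole codons, that made each of its values a whole number of reads (tolerance 0.01 reads). That 100.0% of values above 0 came out whole thus follows in part from this choice. The recovery was tested on simulated data.

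Genes reaching 1 RPKM in 4 or more libraries were kept, 24117 in all, and their log2(RPKM + 1) was fitted with limma 3.58.1 in R 4.3.3, trended empirical Bayes, with stage and hybrid as additive terms, or 6 groups of 2 for comparisons within hybrids or stages. Benjamini-Hochberg adjustment ran over all genes and calls are at 0.05. Fold changes on this scale understate those of low genes. Copy ratios were compared by exact permutation over libraries. Intervals on single values are exact Poisson ones. Alternatives were other pseudocounts, filters, scalings, weights and covariates, limma-voom on the recovered reads, a replicate block, and each library left out in turn. Named genes are the 5 members, the 3 genes most correlated with each and the 3 IDs on either side. The planned lists of other abscisic acid genes, leaf markers and promoter motifs were not used, since no annotation or sequence was used here. The members and lists were chosen with earlier results of these data known. Replicates are separate plants by clone number.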

Additional observations from a re-analysis of the deposited data

Results flagged for a closer look

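In C, replicate 1 of hybrid 85 stood apart from the other 3 libraries of its stage for Potri.001G393800.1, at 17.4 RPKM, and for Potri.009G101200.1, at 46.6 RPKM. The gap to the nearest library was 0.885 and 0.85 of the whole range, above Dixon's 95% critical value for 4 samples. Over the 15 groups tested, chance flags about 1 in 20.

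For Potri.009G101200.1 the plants of the hybrids lay on opposite sides of the mean of their hybrid in the earlier stage, but neither difference between hybrids passed its test. From C to D1 both plants of hybrid 85, at 30.0 and 28.8 RPKM, lay just below a control mean of 30.0 RPKM that joins plants at 46.6 and 13.4 RPKM, and both of hybrid 89 lay above theirs. The difference of the mean changes was 55.0 RPKM. On the log2 scale the change was 0.21 in hybrid 85 and 2.27 in hybrid 89, the same direction, and the difference was 2.05 (95% interval -0.48 to 4.58, limma adjusted p = 0.391).

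From D1 to D2 both plants of hybrid 85 lay above their D1 mean and both of hybrid 89 below theirs, a difference of the mean changes of -48.0 RPKM. On the log2 scale it was -2.27 (95% interval -4.80 to 0.26, limma adjusted p = 0.323). It was -0.74 (limma adjusted p = 0.691) with D2 replicate 1 of hybrid 89, the library at 4.82 RPKM and 14 reads, dropped. It was called in 1 of 21 alternatives, at -3.80 (limma adjusted p = 0.00995) with D2 replicate 2 dropped, which leaves that library alone in its group, assumed to vary like the other groups.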

How the results depend on the processing

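The rises from C to D2 of the 2 NCED3-type genes, Potri.002G125400.1 and Potri.014G028200.1, and that of Potri.014G028200.1 from C to D1, kept their direction and their call in all 23 alternatives, and no called value changed sign in any alternative run. Fitting only the 8 libraries of 2 stages left the D1 rise of Potri.011G112400.1 at 2.24 without its call and gave the D2-against-D1 change of Potri.002G125400.1, 0.79, a call. With library quality weights the D1 differences between hybrids of Potri.002G125400.1 (2.37) and Potri.014G028200.1 (2.28) were called. The count of genes called in D1 was 1342, and 2663 with weights; that between hybrids was 709, 455 at a floor of 5 RPKM and 1284 with weights. The D1 difference between hybrids had 0 calls, 3 with no filter, 32 with quantile normalization and 297 with weights. The D2 difference had 113, then 37 and 43 with pseudocounts of 0.1 and 0.5, 224 with no filter, 58 with quantile normalization, 61 with median-ratio scaling, 23 with weights, 71 by limma-voom and 37 with the replicate block. The cause was not tested. Replicate numbers did not pair the plants: the 6 correlations of deviations ran from -0.036 to 0.082, and the block moved the D1 calls to 954 and ended the call on Potri.002G125400.1 within D1 (1.04, limma adjusted p = 0.131).

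Leaving out 1 library, the ranges were 1.73 to 2.83 for the D1 rise of Potri.011G112400.1 and 1.52 to 2.48 for the D2-against-D1 rise of Potri.001G393800.1. For the D1 difference between hybrids they were 2.17 to 2.56 (Potri.002G125400.1) and 1.96 to 2.60 (Potri.014G028200.1), and for the D2 difference 1.46 to 2.19 and 1.33 to 1.98. Counts of calls ran from 702 to 2099 (D1), 338 to 761 (hybrids), 0 to 133 (D1 difference) and 0 to 2596 (D2 difference). The log2 shift between Potri.011G112400.1 and Potri.001G393800.1 was 1.07 to 1.49 in D1 and 0.93 to 1.32 in D2. That of Potri.002G125400.1 to Potri.014G028200.1 was -1.17 to -0.86 and -0.92 to -0.61, and that of Potri.014G028200.1 to Potri.009G101200.1 was 0.55 to 0.95 and 1.34 to 2.59. From D1 to D2, Potri.002G125400.1 to Potri.009G101200.1 shifted by 0.95 to 1.98. With as few as 14 or 15 reads behind a value, depth limits the lowest levels.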
